A study of Mus musculus with 10 samples.

Results

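The transcription factor p53 and 29 genes known as its targets were followed in mouse embryonic stem cells given auxin to remove the nucleolar histone chaperone NPM1. The 30 genes were taken by name from a given list, which was chosen with earlier results of these data known. All 30 are among the 33006 genes of the count table. They were ordered by role into p53 itself, feedback on p53, cell cycle arrest, apoptosis, DNA repair and 2 targets outside these roles. The compared cells were the E14 line carrying NPM1 in a form that auxin degrades, grown with LIF, the MEK inhibitor PD0325901 at 1 µM and the GSK3 inhibitor CHIR99021 at 3 µM, synchronised in G1 and released for 12 h. Polyadenylated RNA was sequenced from 2 libraries with auxin and 2 libraries without auxin, and the column names of the count table point to 1 clone, so clone and degron cannot be told apart. No cells without the degron that were given auxin were analysed here, so an effect of auxin itself and the loss of NPM1 cannot be told apart either.

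p53 is made all the time and is kept low by Mdm2, a ubiquitin ligase that is itself switched on by p53. DNA damage, or ribosomal proteins set free when ribosome assembly fails, hold Mdm2 back, so that p53 protein builds up with little need for more of its transcript. p53 then binds pairs of a decamer half-site in DNA and activates genes that halt the cell cycle, repair DNA or start apoptosis. NPM1 has been described as a binding partner of p53, of Mdm2 and of the Arf tumour suppressor, and mouse embryonic stem cells are known to hold much p53. RNA counts show the transcripts only, so neither the p53 protein nor its activity was measured.

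The binding element was looked for in the promoters first, because it is the sequence by which p53 recognises these genes. RefSeq promoter sequences (build GRCm38.p6, 250 bases before to 50 bases after a start) were at hand for 20 of the 30 genes, in 28 windows. The p53 response element was searched as its 20-letter consensus without a spacer. This consensus is its own reverse complement, so both strands were covered. A match with at most 1 mismatch stood in 3 of the 20 genes and in 0.0883% of all 32851 promoter windows. The 3 genes were Cdkn1a, Ccng1 and Gtse1, whose matches are shown here on the strand of the gene, with capitals for letters that match the consensus.
Cdkn1a: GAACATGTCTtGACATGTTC
Ccng1: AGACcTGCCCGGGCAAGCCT
Gtse1: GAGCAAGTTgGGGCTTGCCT
The Cdkn1a match lay at chr17:29090928-29090947 on the plus strand and began 51 bases before the start at 29090979, which is also the 5′ end of the gene in the count table. A second Cdkn1a window, of a later RefSeq start (chr17:29093519-29093818), held no half-site, and its closest match had 5 mismatches. The Ccng1 match lay at chr11:40755462-40755481 on the minus strand and began 195 bases before its RefSeq start. The Gtse1 match lay at chr15:85859945-85859964 on the plus strand and began 1 base before the second of its RefSeq starts, so most of it lay after that start. The 5′ end of Gtse1 in the count table is 85859707, which is upstream of the match. The closest match in the window of its first start had 6 mismatches. With up to 3 mismatches, 9 of the 20 genes and 6.29% of all windows held a match. A single 10-letter half-site stood in 10 of the 20 genes and in 8.36% of all windows. A gene was counted if any of its windows held a match, while the shares are over single windows. The counts of genes and the shares are therefore not on the same footing. The genes were listed because they are known p53 targets, and a match of letters does not show that p53 was bound. Sequence outside these windows was not searched, so the lack of a match does not show that a gene has no p53 element.

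Cdkn1a was also the one gene among the 20 with 2 exact half-sites set apart by a spacer of at most 13 bases, an arrangement found in 0.0731% of all windows. Its first half-site is followed by 12 bases and then by a half-site that also opens the unspaced element above. The 250 bases before the start (chr17:29090729-29090978, plus strand) are shown with capitals from the first half-site to the end of the unspaced element.
Cdkn1a: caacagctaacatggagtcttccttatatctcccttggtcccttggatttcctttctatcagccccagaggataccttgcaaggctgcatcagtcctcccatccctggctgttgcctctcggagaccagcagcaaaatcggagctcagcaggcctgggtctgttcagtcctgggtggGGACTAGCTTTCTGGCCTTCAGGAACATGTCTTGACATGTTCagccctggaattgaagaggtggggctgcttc
The capitals span both arrangements and end close to the annotated start at 29090979.

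In all, 13353446 and 16046290 fragments were counted in genes with auxin, against 14789851 and 15183126 without auxin. The mitochondrial share was 4.96% and 3.46% with auxin, against 4.06% and 3.52% without auxin. Transcripts that mark embryonic stem cells were abundant in all 4 libraries, with a summed level of 5546 and 5427 CPM (the usual scaling of counts to library size, here with TMM factors) with auxin and 6125 and 5925 CPM without auxin over 8 markers. Of these 8 markers, 5 fell with auxin, 1 rose (Nanog) and 2 were not called. The 8 fibroblast markers summed to 16.4 and 23.1 CPM with auxin and 9.55 and 11.7 CPM without auxin. Lum and Postn had 0 counts in at least 1 library, and 1 of the 4 fibroblast markers that could be tested rose (Pdgfrb, log2 fold change 1.45). In bulk RNA, fewer cells of a type and less RNA per cell cannot be told apart. Npm1 itself stood at 843 and 767 CPM with auxin and at 1058 and 951 CPM without auxin, a log2 fold change of -0.32 (SE 0.063, adjusted p = 0.00337 in edgeR's quasi-likelihood test). The degron acts on the protein, so this transcript does not check the labels.

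With auxin, more of the p53 genes rose than fell, while the transcript of p53 itself fell. Of the 29 genes that could be tested, 14 rose (48.3%), 4 fell (13.8%) and 11 were not called at an adjusted p of 0.05. Among all 13522 genes tested, 13.0% were called higher and 14.5% lower in the same fit. The median log2 fold change, auxin over no auxin, was 0.23 over the p53 genes and 0.01 over all genes. The changes were small: Rrm2b alone passed 1 on the log2 scale. The p53 genes were chosen with earlier results of these data known, so their excess of higher calls is not an independent test. Over 38 other p53 targets, described below, the median was 0.03, with 21.1% called higher and 13.2% lower. Both auxin libraries lay above both libraries without auxin for 18 of the 29 genes and below them for 7, and the libraries overlapped for 4. Over all genes tested, 33.0% had both auxin libraries above and 31.8% had both below. Most of the p53 genes are well expressed, so they were also set beside genes of at least 10 CPM on average. Of those 8944 genes 12.6% were called higher and 20.0% lower, and their median was -0.03 (log2), against 14 higher, 3 lower and a median of 0.24 for the 27 p53 genes at that level. In DESeq2, 10 of the p53 genes were called higher and 3 lower, beside 7.10% and 11.7% of all genes. With upper-quartile factors 15 were called higher and 4 lower, beside 15.0% and 12.6%. With replicate 2 of auxin left out 12 were called higher and 3 lower, beside 10.3% and 11.6%, and with replicate 1 of no auxin left out 11 and 3, beside 8.75% and 8.98%. Each fit with a library left out, here and for single genes, has 1 condition with a single library, whose spread is taken from the pair of the other condition. The only gene not tested was Fas, a death receptor, with 2 and 4 counts with auxin and 4 and 6 counts without auxin.

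**Figure D1:**
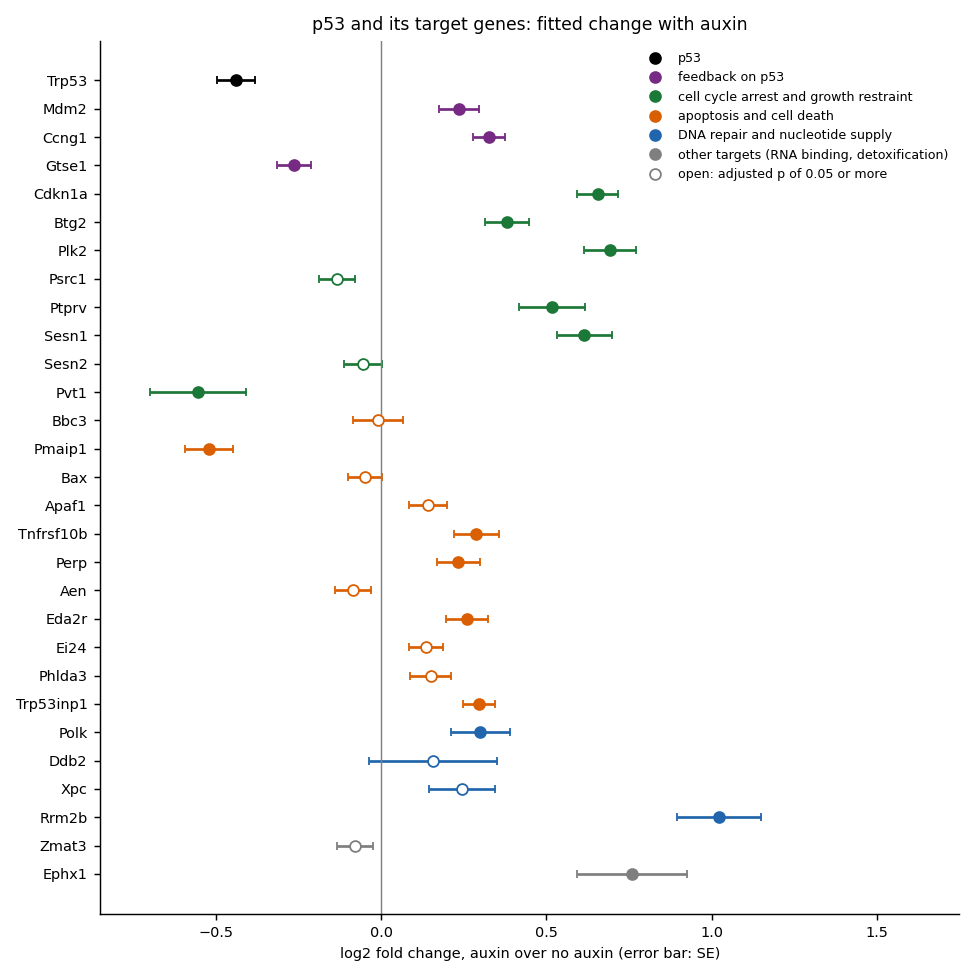
Log2 fold change of the 29 tested p53 genes, auxin over no auxin (x axis), 1 gene a row in order of role, with error bars of 1 SE from the fit to 2 libraries each. Filled points have an adjusted p under 0.05: 14 lie to the right of 0 and 4 to the left (Trp53, Gtse1, Pvt1 and Pmaip1), and Rrm2b lies farthest to the right at 1.02.

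**Figure D2:**
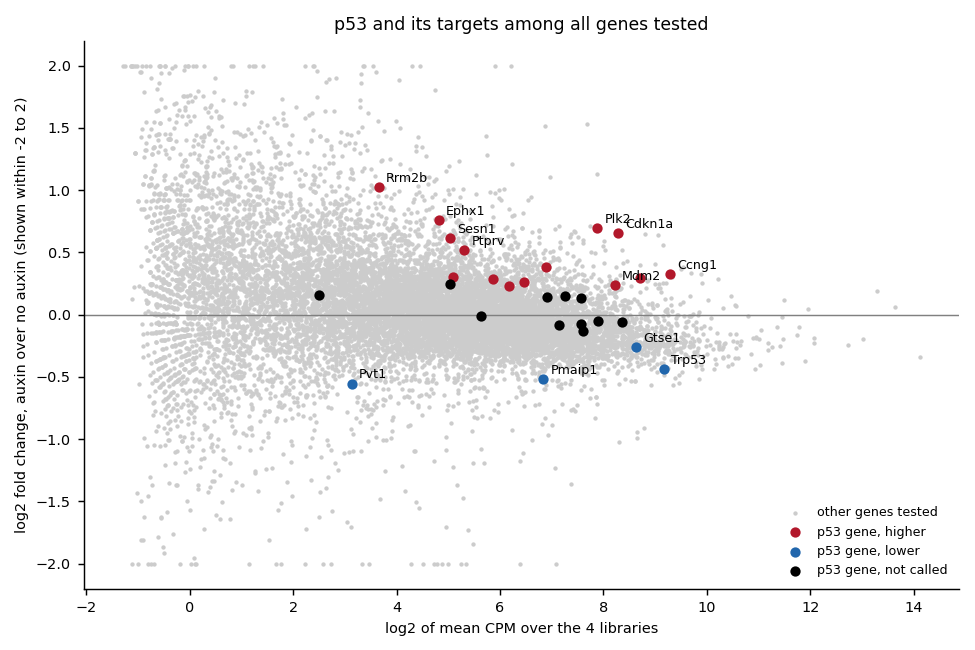
Fitted log2 fold change, auxin over no auxin (y axis), against mean expression (x axis, log2 of mean CPM) for the 13522 genes tested (grey) and the 29 tested p53 genes (red called higher, blue called lower, black not called), with grey points beyond -2 or 2 drawn at those limits. The p53 genes lie between -0.55 and 1.02, well inside the range of all genes, from -5.67 to 7.91.

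Trp53, the gene of p53 (chr11:69580359-69591873, mm10, plus strand), fell with auxin. Its level was 510 and 467 CPM with auxin, against 685 and 639 CPM without auxin. Both auxin libraries lay below both others. The log2 fold change was -0.44 (SE 0.057, adjusted p = 0.000303), or 1.36-fold lower. Per kilobase of exon, Trp53 was ranked 2 among the 30 genes without auxin, at 164 CPM per kb, and ranked 5 with auxin, at 121 CPM per kb. The level of Bax, first in both conditions, was 268 CPM per kb with auxin and 278 CPM per kb without auxin. Cdkn1a ranked 3 with auxin, at 170 CPM per kb, and 5 without auxin, at 108 CPM per kb. Rrm2b, near the low end, stood at 2.62 CPM per kb with auxin and 1.29 CPM per kb without auxin, and Fas was last in both conditions, at 0.107 CPM per kb with auxin and 0.191 CPM per kb without auxin.

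All 3 genes that feed back on p53 changed, in both directions. Mdm2, the ubiquitin ligase that destroys p53, stood at 306 and 340 CPM with auxin and 266 and 283 CPM without auxin. Ccng1, or cyclin G1, which brings a phosphatase to Mdm2, stood at 712 and 677 CPM with auxin and 548 and 559 CPM without auxin. Gtse1, which binds p53 and carries it out of the nucleus in human cells, stood at 350 and 374 CPM with auxin and 431 and 438 CPM without auxin. In none of the 3 did the libraries of the conditions overlap. Over all genes tested, 13.0% were called higher and 14.5% lower. Both auxin libraries lay above both others in 33.0% of all genes and below them in 31.8%, so a lack of overlap was common. The log2 fold change of Ccng1 was 0.33 (SE 0.049, adjusted p = 0.000701) and that of Gtse1 was -0.26 (SE 0.050, adjusted p = 0.00291). The change of Mdm2 was the smallest of the 3, at 0.24 (SE 0.060, adjusted p = 0.0136). It was not called with replicate 2 of auxin left out (adjusted p = 0.0746) or with replicate 1 of no auxin left out (adjusted p = 0.0933). Ccng1 and Gtse1 moved in opposite directions, and each has a near match to the p53 element, printed above. Binding of p53 to these matches was not tested.

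**Figure D3:**
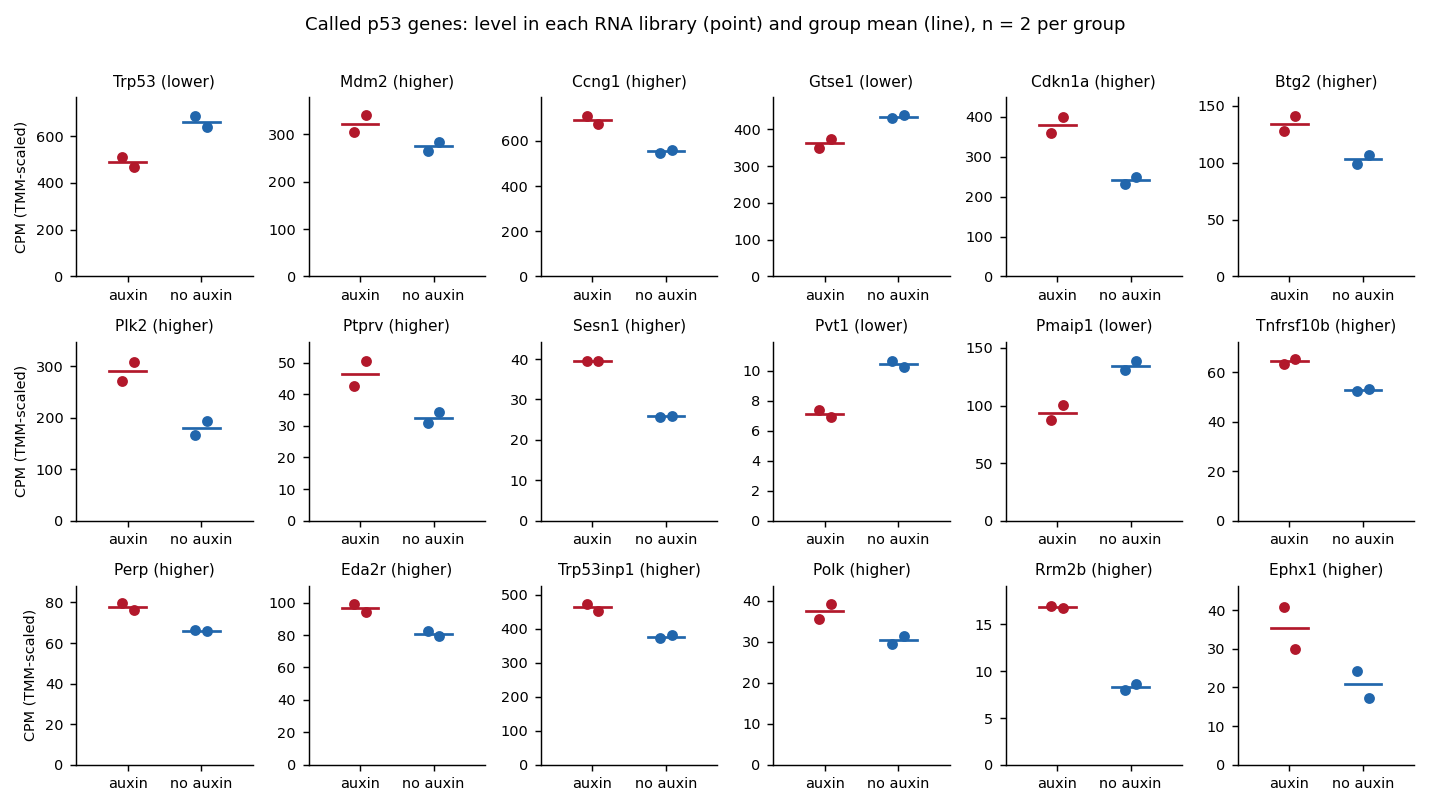
Level in CPM (y axis, from 0) of the 18 called p53 genes, 1 panel a gene, with auxin on the left and no auxin on the right of each panel. Points are the 2 libraries of each condition and lines their means. In Cdkn1a, Plk2, Sesn1 and Rrm2b both auxin libraries lie clear of both others, while the 2 auxin libraries of Ephx1 lie far apart, at 40.9 and 29.9 CPM.

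Of the 8 genes of cell cycle arrest and growth restraint, 5 rose (62.5%), 1 fell (12.5%) and 2 were not called, and their median was 0.45 (log2). Shares over all genes were 13.0% higher and 14.5% lower. Cdkn1a, the gene of the cyclin-dependent kinase inhibitor p21 (chr17:29090979-29100722, mm10, plus strand), stood at 358 and 399 CPM with auxin and 231 and 250 CPM without auxin. The lower auxin library was far above the higher library without auxin. Its log2 fold change was 0.65 (SE 0.062, adjusted p = 3.83e-05), or 1.57-fold higher. Plk2, a polo-like kinase, stood at 272 and 310 CPM with auxin and 166 and 194 CPM without auxin. That was a log2 fold change of 0.69 (SE 0.078, adjusted p = 0.000114), or 1.62-fold higher. Sesn1, a sestrin that restrains the growth kinase mTORC1, stood at 39.6 and 39.4 CPM with auxin and 25.7 and 25.9 CPM without auxin. Its replicates were nearly equal in both conditions, and the log2 fold change was 0.61 (SE 0.083, adjusted p = 0.000398).

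Ptprv, a receptor-like phosphatase of the p53 arrest response in mouse, stood at 42.5 and 50.5 CPM with auxin and 30.9 and 34.3 CPM without auxin (log2 fold change 0.52, SE 0.099, adjusted p = 0.00295). Btg2, which slows proliferation and promotes the removal of poly(A) tails, stood at 127 and 141 CPM with auxin and 99.2 and 107 CPM without auxin (log2 fold change 0.38, SE 0.068, adjusted p = 0.00199). For both genes the conditions did not overlap. Pvt1, a long non-coding RNA made beside Myc, went the other way at 7.37 and 6.89 CPM with auxin and 10.7 and 10.2 CPM without auxin. Its log2 fold change was -0.55 (SE 0.15, adjusted p = 0.0156), which was not called with replicate 2 of auxin left out (adjusted p = 0.0676), with replicate 1 of no auxin left out (adjusted p = 0.0514) or in DESeq2 (adjusted p = 0.103). Psrc1, which acts on spindle microtubules, had a log2 fold change of -0.13 (adjusted p = 0.0893). Sesn2, a second sestrin, had one of -0.06 (adjusted p = 0.515), with libraries that overlapped.

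Of the 12 genes of apoptosis and cell death, 11 could be tested, of which 4 rose (36.4%) and 1 fell (9.1%), which left 6 not called, and the median change was 0.14 (log2). Over all genes 13.0% were called higher and 14.5% lower, and 3 of the 4 higher calls were lost under an alternative. The BH3-only gene Pmaip1, whose product Noxa neutralises anti-apoptotic Mcl1, fell. Its level was 87.4 and 100 CPM with auxin and 131 and 139 CPM without auxin, with a log2 fold change of -0.52 (SE 0.072, adjusted p = 0.000458). Trp53inp1, which promotes cell death and autophagy, stood at 473 and 451 CPM with auxin and 373 and 381 CPM without auxin (log2 fold change 0.30, SE 0.049, adjusted p = 0.00126). Both genes showed no overlap between conditions, and they moved in opposite directions.

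The other 3 that rose, whose calls were the ones lost, code for proteins of the cell surface. Tnfrsf10b, a death receptor for TRAIL, stood at 63.6 and 65.2 CPM with auxin and 52.4 and 53.1 CPM without auxin. Its log2 fold change was 0.29 (SE 0.069, adjusted p = 0.00926, but 0.0569 with replicate 1 of no auxin left out and 0.0544 in DESeq2). Eda2r, the receptor of ectodysplasin A2, stood at 99.4 and 94.1 CPM with auxin and 82.2 and 79.3 CPM without auxin. It was higher in both auxin libraries, by 0.26 on the log2 scale (SE 0.063, adjusted p = 0.0106, but 0.0703 with replicate 2 of no auxin left out). Perp, a tetraspan membrane protein of desmosomes, stood at 79.6 and 76.1 CPM with auxin and 66.5 and 65.8 CPM without auxin. Its change was 0.23 on the log2 scale (SE 0.065, adjusted p = 0.0210), and it was not called with replicate 1 of auxin left out (adjusted p = 0.0949), with either library of no auxin left out (0.0856 and 0.100) or in DESeq2 (0.114).

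Bax, Bbc3, Apaf1 and 3 further genes of cell death were not called. Bax, which opens the outer mitochondrial membrane, stood at 231 and 236 CPM with auxin and 247 and 235 CPM without auxin (log2 fold change -0.05, SE 0.051, adjusted p = 0.528). Bbc3, whose product Puma is a BH3-only activator of Bax, stood at 47.3 and 51.1 CPM with auxin and 49.0 and 50.2 CPM without auxin (log2 fold change -0.01, SE 0.076, adjusted p = 0.944). For these 2 genes the libraries of the conditions overlapped. Apaf1, the scaffold of the apoptosome, had a log2 fold change of 0.14 (adjusted p = 0.0927). The others were Phlda3, an inhibitor of Akt signalling, at 0.15 (adjusted p = 0.0949, but 0.0156 with replicate 1 of auxin left out), Ei24, a protein of the endoplasmic reticulum, at 0.14 (adjusted p = 0.0741, but 0.0368 with upper-quartile factors), and Aen, a nuclease of apoptotic cells, at -0.09 (adjusted p = 0.273). A p over the threshold does not show that these levels were equal.

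All 4 genes of DNA repair and nucleotide supply had positive log2 fold changes, from 0.16 to 1.02, and 2 of them were called higher (50.0%). Over all genes 13.0% were called higher, and 6988 of the 13522 tested had a positive change. Rrm2b, the p53-inducible small subunit of ribonucleotide reductase, which supplies deoxynucleotides outside S phase, stood at 17.0 and 16.8 CPM with auxin and 8.01 and 8.61 CPM without auxin. The auxin libraries were about level with each other and far above both libraries without auxin. Its log2 fold change of 1.02 (SE 0.13, adjusted p = 0.000224), or 2.03-fold higher, was the largest among the 29 tested genes. Polk, a DNA polymerase that copies past lesions, stood at 35.6 and 39.3 CPM with auxin and 29.5 and 31.4 CPM without auxin. Its log2 fold change was 0.30 (SE 0.089, adjusted p = 0.0268), and it was not called with replicate 2 of auxin left out (adjusted p = 0.170), with replicate 1 of no auxin left out (0.143) or in DESeq2 (0.144). The damage sensors of nucleotide excision repair were not called: Xpc had a log2 fold change of 0.24 (adjusted p = 0.0906), which was 0.38 and called with replicate 1 of no auxin left out (adjusted p = 0.0266) and 0.11 with replicate 2 of no auxin left out. Ddb2, at 6.78 and 5.17 CPM with auxin and 5.48 and 5.15 CPM without auxin, had one of 0.16 (adjusted p = 0.587), which was -0.04 with replicate 1 of auxin left out.

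The last 2 genes act outside these roles. Ephx1, a microsomal epoxide hydrolase of detoxification, stood at 40.9 and 29.9 CPM with auxin and 24.4 and 17.3 CPM without auxin. The replicates of each condition lay far apart, yet the conditions did not overlap, and the log2 fold change was 0.76 (SE 0.17, adjusted p = 0.00599, but 0.0951 in DESeq2). Genes of other detoxification pathways moved in the same libraries. Of 6 targets of the aryl hydrocarbon receptor 4 rose, Cyp1a1 with the smallest p (log2 fold change 7.91), and of 7 tested targets of the oxidative stress factor NRF2 4 rose, Nqo1 with the smallest p (log2 fold change 1.11). Nqo1 is in both lists, Ephx1 is also known as an NRF2 target, and the part of these pathways in its change was not tested. Zmat3, an RNA-binding zinc finger protein, stood at 179 and 190 CPM with auxin and 192 and 197 CPM without auxin (log2 fold change -0.08, adjusted p = 0.310).

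Of 38 other p53 targets, 8 rose (21.1%) and 5 fell (13.2%), which left 25 not called, and the median change was 0.03 (log2). Over all genes 13.0% were called higher and 14.5% lower, so the share that fell was near that of all genes. The counts were not stable: 4 rose with replicate 1 of no auxin left out and 5 in DESeq2, while 3 fell with upper-quartile factors or with any 1 library but replicate 1 of auxin left out, and 2 fell in DESeq2. Trp53i11 had the smallest p among those that rose, at 42.5 and 41.5 CPM with auxin and 30.6 and 30.2 CPM without auxin (log2 fold change 0.47, SE 0.080, adjusted p = 0.00168). Trp53cor1, or lincRNA-p21, is a long non-coding RNA on chromosome 17 beside Cdkn1a. It stood at 7.45 and 5.40 CPM with auxin and 2.67 and 3.12 CPM without auxin, a log2 fold change of 1.13 (SE 0.23, adjusted p = 0.00393). For Trp53cor1 and Cdkn1a both auxin libraries lay above both others, as in 33.0% of all genes tested. With auxin, Trp53cor1 was higher in replicate 1 and Cdkn1a in replicate 2, and joint variation of the pair was not tested. Abhd4, a lipase, rose by 0.31 (adjusted p = 0.00434, but 0.0504 with replicate 1 of no auxin left out).

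The 3 other targets of smallest p among those that fell were Gadd45a, Pcna and Polh. Gadd45a, a growth arrest and stress protein, stood at 10.8 and 10.5 CPM with auxin and 22.5 and 15.9 CPM without auxin, a log2 fold change of -0.85 (SE 0.16, adjusted p = 0.00280). Pcna, the sliding clamp of DNA polymerases, fell by 0.29 on the log2 scale (adjusted p = 0.00365). Polh, a lesion bypass polymerase like Polk, fell by 0.39 (adjusted p = 0.0166), a call lost with replicate 1 of auxin left out and in DESeq2. Among targets tied to arrest, Gadd45a and Cdkn1a moved in opposite directions in the same libraries.

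Of 23 tested regulators of p53 outside the 30 genes, 3 rose (13.0%) and 7 fell (30.4%), which left 13 not called, and the median change was -0.13 (log2). Over all genes the shares were 13.0% higher and 14.5% lower, so the share that rose was that of all genes. Among genes of at least 10 CPM on average, as these regulators are, 12.6% were called higher and 20.0% lower. The count that fell was 6 with upper-quartile factors, 7 in DESeq2 and 8 with a filter of 1 read in any library. The count that rose was 1 in DESeq2, with replicate 2 of auxin left out and with replicate 1 of no auxin left out. Trp53bp1, a p53-binding protein of DNA break repair, stood at 81.0 and 76.0 CPM with auxin and 55.5 and 56.4 CPM without auxin (log2 fold change 0.49, SE 0.068, adjusted p = 0.000493). Trp73, a member of the p53 family, rose by 0.43 (adjusted p = 0.0183), and Mdm4, the partner of Mdm2 that inhibits p53, rose by 0.20 (adjusted p = 0.0236). The calls of Trp73 and Mdm4 were each lost in DESeq2 and without some libraries, so that Trp53bp1 alone rose under every alternative apart from the replicate block.

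Rpl11 and Rpl5, the ribosomal proteins that bind and inhibit Mdm2, both fell. Rpl11 stood at 279 and 288 CPM with auxin and 352 and 359 CPM without auxin (log2 fold change -0.33, SE 0.048, adjusted p = 0.000638). Rpl5 had a log2 fold change of -0.19 (adjusted p = 0.0152, but 0.152 with replicate 1 of no auxin left out). Ribosomal protein genes have many processed copies, and reads shared with them could not be resolved in these counts. Sirt1, a deacetylase of p53, fell by 0.46 on the log2 scale (adjusted p = 0.000753), and Topors, a ubiquitin and SUMO ligase of p53, fell by 0.42 (adjusted p = 0.000897). Cdkn2a, the locus of Arf, which holds Mdm2 in the nucleolus, was not called at 14.2 and 15.1 CPM with auxin and 12.5 and 13.8 CPM without auxin (log2 fold change 0.16, adjusted p = 0.376).

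Genes of cell cycle phases moved beside the p53 genes, in a fit that called 14.5% of all genes lower. Among genes of at least 10 CPM on average, as these are, it called 20.0% lower. Among 17 genes of the G1/S transition 10 fell, while the other 7 were not called, with a median of -0.22 (log2), and Pola1, a replicative polymerase subunit, had the smallest p (-0.53). Among 19 genes of G2 and mitosis 16 fell, while the other 3 were not called, with a median of -0.29, and Mki67, a marker of cycling cells, had the smallest p (-0.38). Gtse1, which fell, is itself made mainly in G2. The cells had been released from G1 together, and the part of cell cycle position in the p53 values was not tested. Of 10 genes of the integrated stress response 1 fell (Phgdh, log2 fold change -0.28, a call lost with replicate 1 of auxin or either library of no auxin left out) and 9 were not called, with a median of 0.04.

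**Figure D4:**
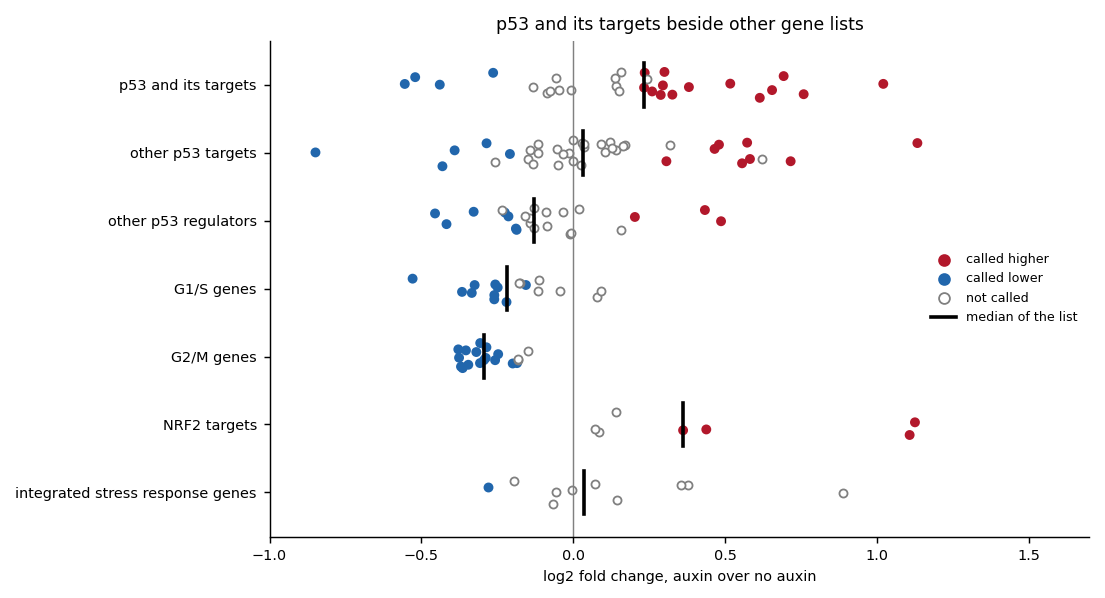
Fitted log2 fold change, auxin over no auxin, (x axis) of every tested gene, 1 row a list, for p53 and its targets and 6 lists beside them, with each list's median as a bar and open points for genes not called. The median is 0.23 for the p53 genes, 0.03 for the other p53 targets, -0.13 for the other regulators and -0.29 for the G2/M genes.

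The chromatin samples show the p53 genes in control cells, since the peak lists used here hold no auxin-treated sample. H3K27me3, the histone mark of Polycomb repression, was called by the authors from 1 ChIP-seq sample without auxin at 6 h (41159 peaks) and 1 CUT&RUN control sample at 12 h (66242 peaks). In the ChIP-seq list none of the 30 genes had a peak within 1 kb of its 5′ end, against 9.27% of 32353 genes with a position. In the CUT&RUN list 2 of the 30 had one, Ptprv and Fas, against 13.5% of those genes. These shares were not matched for expression. Only 13522 of the 33006 genes in the count table could be tested, while 27 of the 30 p53 genes stood at 10 CPM or more on average. A low share of marked genes is therefore not shown to be particular to the p53 genes. The Ptprv peak (chr1:135133443-135134261) was 819 bases wide and 849 bases from the 5′ end, with an authors' fold enrichment of 3.18 and a −log10 q of 1.74. The Fas peak (chr19:34290651-34290932) was 282 bases wide and covered the 5′ end, with a fold enrichment of 2.86 and a −log10 q of 1.604. Both peaks were weak by the authors' own values: within 1 kb of a 5′ end, no peak of the 30 genes had a −log10 q of at least 3. Peaks elsewhere in the genes, which Fas and Pvt1 had in the CUT&RUN list, were not filtered by q. Fas was also the gene with the fewest counts of the 30, while Ptprv was expressed and rose with auxin.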

How the data were processed

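Raw fragment counts by gene name were deposited, which the authors made with featureCounts 1.6.3 from exons of an mm10 annotation in its reverse-stranded mode, per the file headers. The submitters' processing notes name STAR 2.6.1d and MACS2 2.1.1. Each peak deposited by the authors carries a score, its fold over background, and p and q values as −log10.

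Counts of 2 auxin and 2 no auxin libraries were tested in edgeR 4.0.16 (R 4.3.3) with TMM factors, the default expression filter, the two-sided quasi-likelihood F test and Benjamini-Hochberg adjustment over all 13522 genes tested. Adjusted p-values are from this fit of all 4 libraries, except those given for DESeq2 1.42.0, for another setting or for a fit with 1 library left out. In the last kind the genes passing the filter differ and 1 condition has a single library, so the spread comes from the other condition's pair and the lone library is assumed to vary likewise. Called means an adjusted p under 0.05. Levels are CPM on TMM-scaled library sizes. Standard errors are absolute log2 fold changes divided by the root of F. No label says that replicates were separate cultures, so p-values measure only the spread between libraries, which may be technical. Chi-square tests of replicate counts gave 11.1 per degree of freedom with auxin and 3.86 without auxin, above counting noise, so no library was counted as a repeat. In data simulated for this comparison over 13298 genes, the test called 84% of 100 genes shifted by 1 (log2) and 54.5% of 99 shifted by 0.5, with 17 false calls among 13099 unchanged genes. Far fewer genes were shifted there than were called in the real data (1759 higher and 1964 lower). Counts were also drawn without any effect shared by same-numbered libraries, so these rates may not carry over to the real libraries.

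The p53 genes, the lists and the tests were chosen with earlier results of these data known. Every one of the 30 genes is accounted for. Outside them, the rule named the 3 genes of smallest p in each direction among called targets and regulators, with Npm1, Rpl5, Rpl11, Cdkn2a and Mdm4, and the gene of smallest p in each list beside them. Nanog, Pdgfrb, Lum and Postn are cell type markers named after their values were seen. Alternatives were RLE and upper-quartile factors, a filter of 1 read in any library, DESeq2, each library left out, and a replicate block. The genes of at least 10 CPM were added as a comparison after seeing the data. Input, IgG and the other chromatin samples were not used here.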

Additional observations from a re-analysis of the deposited data

How the results depend on the processing

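Of the 18 p53 genes called, 11 kept the call under all 8 alternatives other than the replicate block, and 7 lost it under at least 1 (Mdm2, Pvt1, Tnfrsf10b, Perp, Eda2r, Polk and Ephx1). Of the 11 genes not called, Ei24 was called with upper-quartile factors, Phlda3 with replicate 1 of auxin left out and Xpc with replicate 1 of no auxin left out. The cause was not tested. With 1 library left out, its condition has a single library and the spread is taken from the other pair. Several called genes had smaller adjusted p-values in such fits than with all 4 libraries. The filter of 1 read in any library did the same: that of Cdkn1a was 3.2e-29 in edgeR's quasi-likelihood test, against 3.83e-05 in the main fit. A call kept in these fits is therefore a weak check of its stability. Over these 8 alternatives the p53 genes called higher numbered 10 (DESeq2) to 15 and those called lower 3 to 4. The signs of 3 genes that were not called turned: with 1 library left out, the log2 fold change of Sesn2 ranged from -0.119 to 0.005, of Bbc3 from -0.066 to 0.042 (0.019 with upper-quartile factors) and of Ddb2 from -0.043 to 0.355. Over all genes, 881 were called higher in DESeq2, against 1759 in edgeR. With 1 library left out 1225 to 1705 were called higher and 1257 to 1914 lower, the lowest in both directions with replicate 1 of no auxin left out. Among other p53 targets, DESeq2 called 5 higher and 2 lower, upper-quartile factors 3 lower, and leaving out 1 library 4 to 10 higher and 3 to 4 lower. Among other regulators DESeq2 called 1 higher, and leaving out 1 library 1 to 2 higher. The CUT&RUN peaks were at 0 of the 30 genes for a −log10 q of at least 3, 1 within 500 bases and 0 where 500 bases had to be covered.

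Replicate numbers do not pair the samples by any label: with 2 pairs, same-numbered libraries had deviations correlated at 0.227. With the replicate block 2972 genes were called higher and 3177 lower, every p53 gene called without the block kept its call and Psrc1, Apaf1, Ei24, Phlda3 and Xpc were called as well. The block also called 16 other targets higher and 9 lower, and 12 other regulators lower. With 2 pairs, the block fit has little left from which to estimate the spread. Its adjusted p-values were far smaller, as for Cdkn1a (2.02e-70, against 3.83e-05 without the block, both in edgeR's quasi-likelihood test). Calls kept or gained with the block are therefore a weak check.

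Fas, Ddb2 and Pvt1 had the fewest counts of the 30 genes. With 2 libraries in each condition, the smallest change called among the p53 genes was 0.23 on the log2 scale.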

Other observations

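Library 2 stood above library 1 in both conditions for 14 of the 29 tested p53 genes, against 30.5% of all genes tested. Mdm2, Cdkn1a, Plk2, Btg2, Ptprv and Pmaip1 were among them. The labels do not say what replicate numbers share, and the samples were not taken as pairs.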
